A study of Homo sapiens with 8 samples.

Results

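The actin and microtubule cytoskeleton was examined through 50 genes, of 78691 in the count table, in prostate cancer cells in which MYCL was raised or lowered. The genes were taken by name: 28 on the actin side (actins, tropomyosins, non-muscle myosin II, crosslinkers, and proteins that sever or bind actin) and 22 on the microtubule side (tubulins, stathmins, microtubule-associated proteins and collapsin response mediators). Both sides were read apart. Each name matched a row of the table, and no member was left out. The list was chosen with earlier results of these data known. Shares of members called are therefore set beside those of all genes as description only.

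The study sequenced poly(A)-selected RNA of 2 human cell lines, with 2 libraries in each of 4 conditions, to ask how MYCL, a MYC family transcription factor, changes gene expression. C4-2B, an androgen receptor-positive prostate adenocarcinoma line, carried either an empty lentiviral vector (control) or a lentivirus driving human MYCL with EGFP from the EF1A promoter (MYCL). NCI-H660, a neuroendocrine prostate cancer line, carried either a non-targeting shRNA (shCtrl) or shRNA against MYCL (shMYCL). The study's methods and design notes give an adenoviral vector for the knockdown, while the treatment notes speak of stable knockdown, and neither line was described as a single clone. The C4-2B control libraries are labelled biological replicates and the C4-2B MYCL and NCI-H660 libraries only replicates. The p-values below therefore measure the spread between these libraries, which may be partly technical.

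Actin filaments and the myosin II motors that slide along them let a cell contract, hold its shape and crawl. Microtubules are hollow tubes of alpha- and beta-tubulin that carry cargo, build the mitotic spindle and fill the long processes of neurons. Animals have several genes for each tubulin, and some of these isotypes, such as TUBB3 and TUBB2B, are known as neuronal. Neuroendocrine tumour cells are known to switch on part of the neuronal microtubule programme.

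Library totals ranged from 15177071 to 32344170 estimated counts. MYCL itself had 371 and 320 counts in C4-2B control against 65524 and 70253 in C4-2B MYCL, and 1863 and 1602 in NCI-H660 shCtrl against 165 and 198 in shMYCL, so all 8 libraries matched their labels. The 8 luminal prostate markers summed to between 3437 and 4389 CPM (counts scaled by normalized library size) in C4-2B and to between 2.74 and 5.05 CPM in NCI-H660, and the 8 neuroendocrine markers to between 16.0 and 64.9 CPM and between 1588 and 2034 CPM. The mitochondrial share was 9.63% to 10.7% in C4-2B libraries and 3.499% to 3.83% in those of NCI-H660.

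The members ranged from abundant messages to genes at or near 0 counts. Actin-side members made up 0.7195% to 0.809% of the counts of C4-2B libraries and 1.175% to 1.29% of those of NCI-H660. Microtubule-side members took 0.361% and 0.363% in C4-2B control, 0.300% and 0.295% in C4-2B MYCL, 0.858% and 0.875% in NCI-H660 shCtrl and 0.819% and 0.770% in shMYCL. Per gene length, in TPM (transcripts scaled to a fixed total per library), the leading members in C4-2B control were PFN1 (profilin 1, which supplies actin monomers to growing filaments) at 1213 ± 141 TPM (SD, n = 2), CFL1 (cofilin, which severs filaments) at 971 ± 93.9, ACTB (beta-actin) at 935 ± 46.7, TUBA1B (a housekeeping alpha-tubulin) at 902 ± 18.0, TMSB10 (a thymosin that holds actin monomers) at 871 ± 13.0 and TUBB (the main beta-tubulin) at 772 ± 11.4. CFL1, ACTB and TUBA1B did not differ beyond their spread. In NCI-H660 shCtrl the order began with TMSB10 at 7094 ± 176 TPM, MYL6 (a light chain of myosin) at 4497 ± 131, STMN1 (stathmin, which binds free tubulin) at 2839 ± 506, TUBA1B at 2012 ± 7.76, ACTB at 1816 ± 203 and ACTG1 (gamma-actin) at 1743 ± 50.8. At the other end, DCX, which bundles microtubules in migrating neurons, had 0 counts in 7 libraries and 2 counts in 1 shMYCL library, below the 3 counts that a count of 0 allows.

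**Figure D1:**
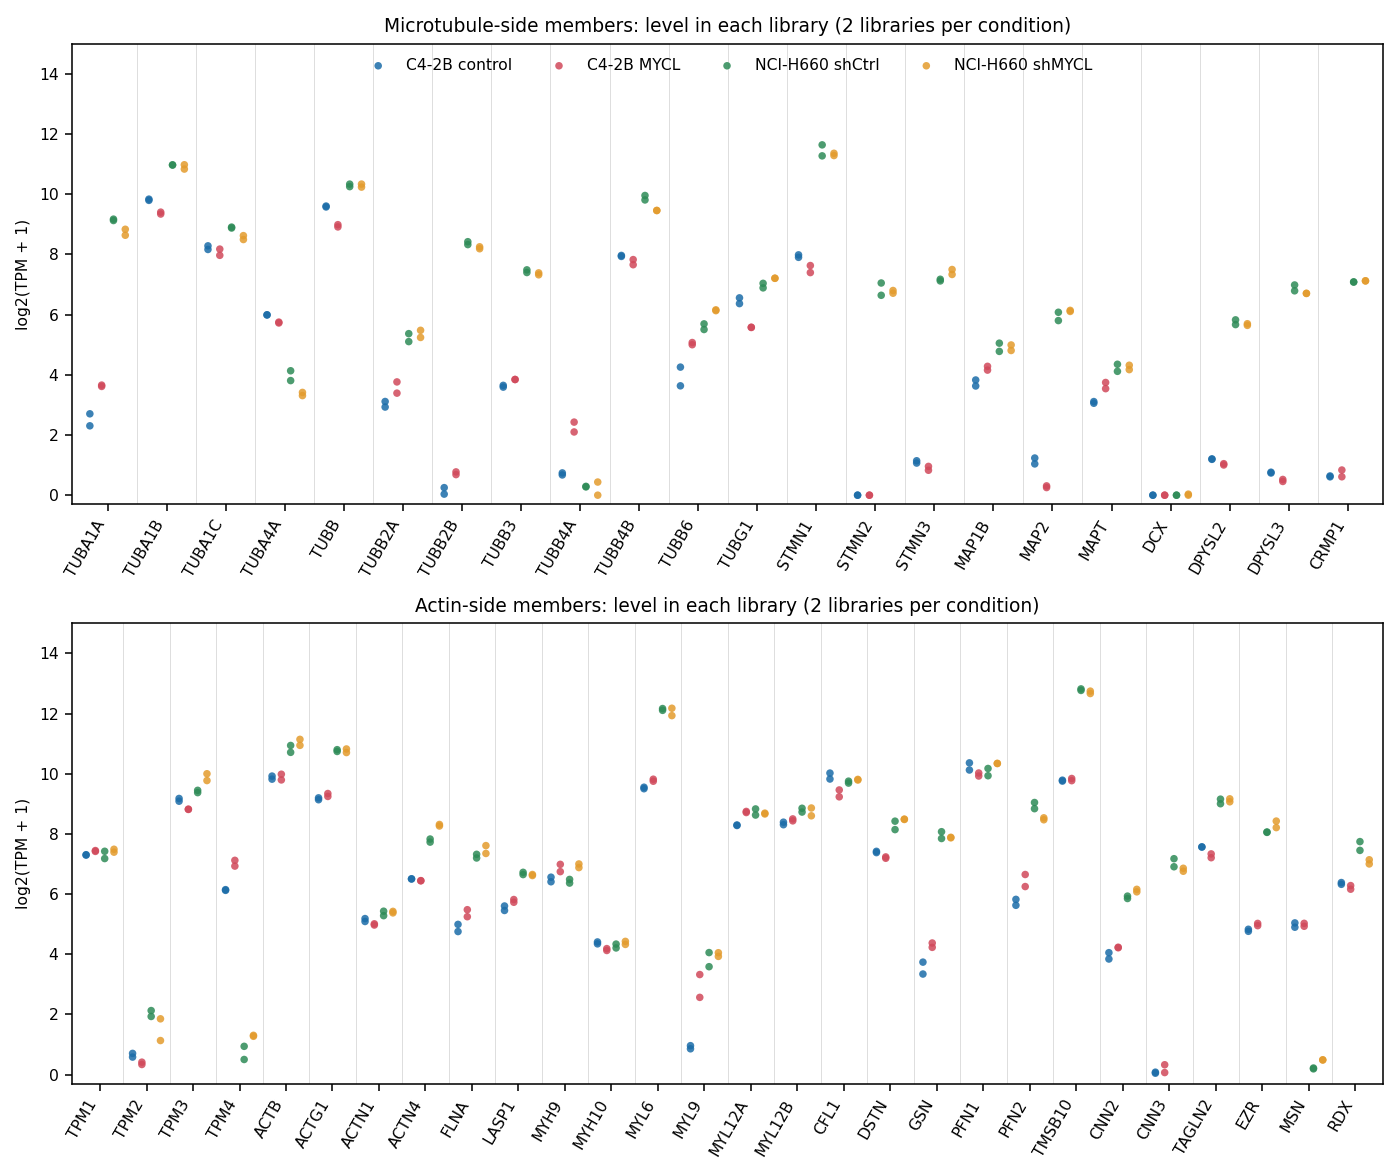
Level of each of the 50 members in each of the 8 libraries, as log2(TPM + 1), with 1 point per library and colours for the 4 conditions. STMN2, CRMP1, DPYSL2, DPYSL3 and TUBB2B are near 0 in C4-2B and high in NCI-H660, and TPM4 and MSN are the reverse.

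RefSeq promoter sequences (build GRCh38.p14, 250 bases before to 50 after each transcript start) were matched for 44 members, and not for STMN2, MAPT, DPYSL2, ACTB, MYL9 and PFN2. A pair of motifs was looked for on both strands: the CArG box, the site of serum response factor, known for switching on actin genes, and the E-box CACGTG, the site bound by MYC family proteins. The CArG box was in 5 of 46 actin-side promoters (10.9%; several genes have more than 1 promoter) and in 0 of 36 microtubule-side promoters, against 1.29% of all 35116 promoters. The E-box was in 3 of 46 actin-side promoters (6.52%) and 5 of 36 microtubule-side promoters (13.9%), against 7.26% of all promoters. These shares are descriptions of the letters in these windows and were not tested. The 5 windows with a CArG box are shown 5′ to 3′ on the gene's strand, each just upstream of a transcript start, with the motif in capitals, because 2 of these genes, TPM4 and FLNA, were called higher in C4-2B MYCL below:
TPM4 (chr19:16067345-16067394, plus strand): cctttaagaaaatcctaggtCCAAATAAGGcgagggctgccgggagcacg
FLNA (chrX:154374699-154374748, minus strand): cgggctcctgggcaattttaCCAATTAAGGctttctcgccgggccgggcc
CNN2 (chr19:1026499-1026548, plus strand): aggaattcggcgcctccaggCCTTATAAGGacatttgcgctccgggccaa
ACTG1 (chr17:81512864-81512913, minus strand): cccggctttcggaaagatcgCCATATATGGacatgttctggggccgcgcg
ACTN1 (chr14:68977708-68977757, minus strand): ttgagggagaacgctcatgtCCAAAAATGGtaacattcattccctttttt

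Of the 8 genes with an E-box, 3 passed the threshold in C4-2B MYCL, as did 2 of the 5 with a CArG box, beside 19.9% of all genes tested, and nothing is read from such small counts. The 3 are TUBB, which was lower, and TUBB4A and MYL12A, which were higher, and their windows are given in the same way with CACGTG in capitals:
TUBB (chr6:30721569-30721614, plus strand): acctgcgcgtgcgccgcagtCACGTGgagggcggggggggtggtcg
TUBB4A (chr19:6502463-6502508, minus strand): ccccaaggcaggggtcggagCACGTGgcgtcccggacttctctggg
MYL12A (chr18:3247404-3247449, plus strand): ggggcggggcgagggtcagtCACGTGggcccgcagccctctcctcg
The other E-boxes lay in promoters of ACTG1, MSN, CRMP1, STMN1 and TUBA1C, none of which was called in that comparison (log2 fold changes 0.27, 0.16, 0.41, -0.29 and 0.019).

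The first comparison asked what raising MYCL does in the adenocarcinoma line. In C4-2B MYCL cells, the actin-side members called in the count test were all higher, with MYL9, TPM4, GSN and PFN2 leading, and microtubule-side members changed in both directions, with minor tubulin isotypes and MAPT higher and the main beta-tubulin TUBB, gamma-tubulin and MAP2 lower. A gene was called where edgeR's quasi-likelihood test gave a Benjamini-Hochberg adjusted p under 0.05 over all genes and its log2 fold change reached 0.5 in size, the fold minimum. Of 46 members tested (the others were too low), 14 were higher and 3 lower, 37.0% in all, against 19.9% of the 16866 genes tested, of which 11.8% were higher and 8.12% lower. On the actin side 7 of 26 were higher and 0 lower, with 17 of the 26 at an unadjusted p under 0.05, as were 7615 of the 16866 genes, and the median log2 fold change was 0.26. On the microtubule side 7 of 20 were higher and 3 lower, with a median of -0.023, against a median of -0.0017 over all genes. The microtubule-side median turned positive without control replicate 1 (0.011) and without MYCL replicate 1 (0.013). On log2(TPM + 1), tested with limma, the median of all genes was -0.142, the share of called genes that were higher went from 59.2% to 33.5%, and the members called were 4 higher and 1 lower (CFL1) on the actin side and 5 higher and 3 lower on the microtubule side. FLNA, MYL12A, MYH9 and MAP1B fell short of the fold minimum on that scale, at 0.49, 0.44, 0.38 and 0.49. Relative to that median, the side medians were 0.265 and -0.032. In bulk RNA, a change in the share of cells that express a gene and a change per cell cannot be told apart. With 2 libraries against 2, the groups of a gene that does not change lie fully apart with probability 0.33. A lack of overlap is therefore given below as description and adds no support to a call.

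MYL9, the regulatory light chain known from contractile smooth muscle, had the largest change on the actin side, with 23 and 19 counts (0.748 and 0.844 CPM) in the control libraries and 81 and 148 counts (4.61 and 8.94 CPM) in the MYCL libraries (log2 fold change 3.09, SE 0.38, adjusted p = 0.000469). Both MYCL libraries lay above both controls, although they differed from each other by more than the lower of them did from the controls. It remained a low message, at 4.92 and 9.01 TPM, next to MYL6 at 900.4 and 859.6 TPM in the same libraries. Its close relative MYL12A, the non-muscle regulatory light chain, had 5948 and 4352 counts (193 and 193 CPM) in the control libraries and 4819 and 4990 counts (275 and 301 CPM) in the MYCL libraries (log2 fold change 0.58, SE 0.073, adjusted p = 0.000529). These groups did not overlap, and the 2 controls were nearly identical. MYH9, the heavy chain of non-muscle myosin IIA, was also called higher, at a log2 fold change of 0.53 that lay just past the fold minimum and came to 0.45 without control replicate 1 and 0.47 without MYCL replicate 1. MYH10, the heavy chain of myosin IIB, did not pass (log2 fold change -0.080), and its share of the summed TPM of both heavy chains was 18.7% and 17.8% in control against 12.0% and 13.4% with MYCL. Of the 6 myosin II members, 3 were called, all higher (50%, against 19.9% of all genes), a count too small to read. MYL6 (0.40) and MYL12B (0.28) had an adjusted p under 0.05 below the fold minimum.

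TPM4, a tropomyosin that coats actin filaments in non-muscle cells, had 4274 and 3155 counts (139 and 140.1 CPM) in the control libraries and 5195 and 4642 counts (296 and 280.3 CPM) in the MYCL libraries (log2 fold change 1.05, SE 0.071, adjusted p = 3.14e-05). The groups were well apart and tight, with both MYCL libraries far above both controls. The other tropomyosins did not pass: TPM1 had a log2 fold change of 0.25 and TPM3 of -0.17, and TPM2 was too low to test, with 14 and 9 counts in control against 5 and 4 with MYCL. Within the family, TPM4 thus took 8.55% and 9.07% of the summed TPM in control against 18.2% and 16.3% with MYCL, while TPM3 took 72.0% and 70.4% in control and 59.0% and 60.8% with MYCL. The family's sum was 803 and 769.7 TPM in control against 759.7 and 742 TPM with MYCL.

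GSN, gelsolin, which severs and caps filaments in the presence of calcium, had 593 and 574 counts (19.3 and 25.5 CPM) in the control libraries and 693 and 781 counts (39.5 and 47.2 CPM) in the MYCL libraries (log2 fold change 0.97, SE 0.14, adjusted p = 0.00106). PFN2, the profilin known from neurons, had 2216 and 1814 counts (72.0 and 80.6 CPM) in the control libraries and 2729 and 2124 counts (155 and 128 CPM) in the MYCL libraries (log2 fold change 0.90, SE 0.10, adjusted p = 0.00034). For both genes each MYCL library exceeded each control library. PFN1, which made up 96.5% and 95.2% of profilin TPM in control libraries, had a log2 fold change of -0.13, so that PFN2's share was 3.55% and 4.76% in control against 9.29% and 6.73% with MYCL. FLNA, filamin A, which crosslinks filaments into a mesh, had 5769 and 4991 counts (188 and 222 CPM) in the control libraries and 5785 and 5042 counts (329.5 and 304 CPM) in the MYCL libraries (log2 fold change 0.64, SE 0.093, adjusted p = 0.00104). The other crosslinkers ACTN1, ACTN4 and LASP1 were not called (log2 fold changes -0.0011, 0.099 and 0.39).

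The remaining 19 tested actin-side members lay between -0.37 (CFL1) and 0.42 (CNN2, a calponin that binds actin and myosin). Beyond those named, ACTG1, LASP1, EZR (ezrin, which ties actin to the membrane), TPM1 and CNN2 had an adjusted p under 0.05 with small positive values (log2 fold changes 0.27, 0.39, 0.35, 0.25 and 0.42), and CFL1 a small negative one (-0.37). With no fold minimum the actin side had 14 higher and 1 lower, where 35% of all genes passed. CNN3 was at 2 and 1 counts in control against 1 and 7 with MYCL and was not tested.

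On the microtubule side the tubulin isotypes moved apart. TUBB, which makes up most beta-tubulin message in these cells, had a log2 fold change of -0.50, with 1534 and 1549 CPM in control against 1072 and 1092 CPM with MYCL. The change lay at the fold minimum and was -0.48 without MYCL replicate 1. TUBB4A, a beta-tubulin known from myelinating glia and neurons, had 33 and 27 counts (1.07 and 1.20 CPM) in the control libraries and 136 and 108 counts (7.75 and 6.55 CPM) in the MYCL libraries (log2 fold change 2.66, SE 0.27, adjusted p = 0.00019). TUBB6, a minor beta-tubulin known to disturb the microtubule array when abundant, had 431 and 449 counts (14.0 and 19.9 CPM) in the control libraries and 695 and 685 counts (39.6 and 41.4 CPM) in the MYCL libraries (log2 fold change 1.27, SE 0.15, adjusted p = 0.000354). In both genes the MYCL libraries were close together and above the controls.

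TUBB2B, a neuronal beta-tubulin, stayed near the limit of detection with 1 and 6 counts (0.0368 and 0.279 CPM) in the control libraries and 19 and 17 counts (1.11 and 1.02 CPM) in the MYCL libraries (log2 fold change 2.90, SE 0.78, adjusted p = 0.0187). The lone count in 1 control makes this fold unstable, and the adjusted p was 0.145 without control replicate 1 and 0.0539 without MYCL replicate 1. TUBB2A, whose sequence is close to that of TUBB2B, was called at 0.76. Of stretches of 100 bases in the canonical TUBB2A transcript, 53.7% also occur in TUBB2B transcripts, so the split of reads between them rests on the authors' estimate. Among alpha-tubulins TUBA1A, the form known from differentiating neurons, had 154 and 153 counts (5.00 and 6.79 CPM) in the control libraries and 274 and 271 counts (15.6 and 16.4 CPM) in the MYCL libraries (log2 fold change 1.45, SE 0.17, adjusted p = 0.000376). TUBA1B, TUBA1C and TUBA4A were not called (log2 fold changes -0.29, 0.019 and -0.14). TUBA1A shares 21.2% of such stretches with other genes, mostly TUBA1B.

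Summed over each family, tubulin message was not higher. The 7 beta-tubulins came to 1044 and 1061 TPM in control against 798 and 741 TPM with MYCL. Counts summed over TUBB, TUBB2A, TUBB2B, TUBB4A and TUBB4B, without TUBB3 and TUBB6, gave a log2 fold change of -0.41 (edgeR adjusted p = 0.00161). This lay below the fold minimum. The 4 alpha-tubulins came to 1268 and 1269 TPM in control against 992 and 1001 TPM with MYCL. Counts summed over TUBA1A, TUBA1B and TUBA1C, without TUBA4A, gave -0.20 (edgeR adjusted p = 0.048). TUBB's share of beta-tubulin TPM was 73.2% and 73.5% in control against 63.6% and 65.0% with MYCL. The shares of TUBB6 were 1.09% and 1.71% and 4.09% and 4.18%, and those of TUBB4B 23.9% and 23.0% and 28.4% and 27.1%. The isotypes called higher remained a small part of the pool: TUBA1A was 1.17% and 1.12% of alpha-tubulin and TUBB4A 0.549% and 0.444% of beta-tubulin in the MYCL libraries. The shares were not tested.

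**Figure D2:**
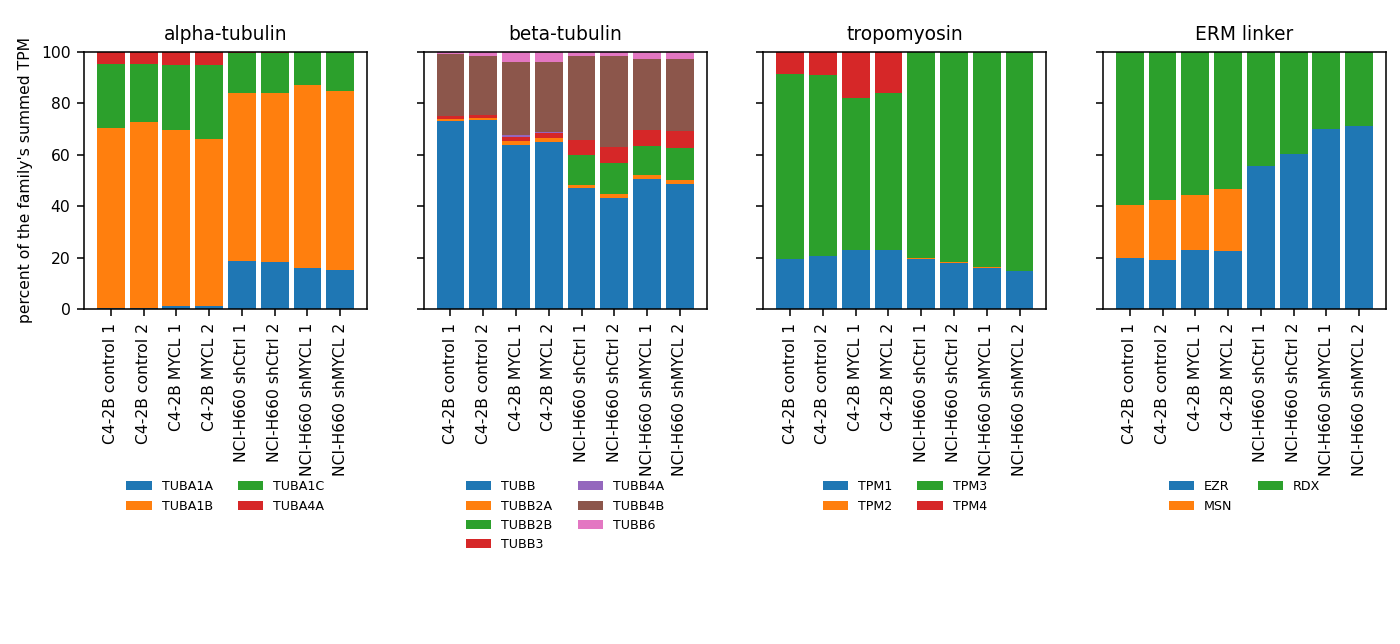
Stacked bars of each isotype's percent of its family's summed TPM in each of the 8 libraries, for alpha-tubulins, beta-tubulins, tropomyosins and the ezrin, radixin and moesin (ERM) linkers. TUBB goes from 73.2% and 73.5% to 63.6% and 65.1% of beta-tubulin in C4-2B MYCL, TPM4 goes from 8.55% and 9.07% to 18.2% and 16.3% of tropomyosin there, and TUBA1A, TUBB2B and EZR take a far larger part in NCI-H660 than in C4-2B.

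Proteins that act on microtubules also moved in both directions. MAPT, tau, which stabilizes axonal microtubules, had 554 and 447 counts (18.0 and 19.9 CPM) in the control libraries and 664 and 618 counts (37.8 and 37.3 CPM) in the MYCL libraries (log2 fold change 1.00, SE 0.096, adjusted p = 0.000145). MAP2, its relative of dendrites, had 220 and 142 counts (7.15 and 6.31 CPM) in the control libraries and 15 and 21 counts (0.854 and 1.27 CPM) in the MYCL libraries (log2 fold change -2.66, SE 0.29, adjusted p = 0.000252). The 2 related genes thus changed in opposite directions, each with no overlap between groups, and MAP2 was a low message even in control at 1.35 and 1.06 TPM. MAP1B, which is known to act in growing axons, was called higher (0.67), and TUBG1, the gamma-tubulin that seeds microtubules at the centrosome, lower (-0.76). STMN1 had an adjusted p under 0.05 below the fold minimum (-0.29), as did TUBA1B (-0.29) and TUBB3 (0.39). STMN2, the neuronal stathmin, had 0 counts in all 4 C4-2B libraries. STMN3, TUBB4B and the collapsin response mediators DPYSL2, DPYSL3 and CRMP1 did not pass, with log2 fold changes between -0.60 and 0.41.

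Other measures moved with these groups. Of 24 proliferation genes, 13 were lower and 0 higher in C4-2B MYCL (background above: 8.12% lower), and their summed level was 4180 and 4036 CPM in control against 2808.5 and 2740.3 CPM with MYCL. The 11 fibroblast and smooth muscle markers summed to 12.4 and 14.3 CPM in control against 24.1 and 23.2 CPM with MYCL, with 2 of 4 tested called higher, COL1A1 making up most of the sum and ACTA2, the smooth muscle actin, at 8 and 5 counts in control against 33 and 45 with MYCL. COL1A2, DCN, LUM, PDGFRA and DES were at 0 in all 4 C4-2B libraries. The 4 endothelial markers summed to between 7.55 and 10.2 CPM and the 4 blood cell markers to between 0.285 and 0.666 CPM in C4-2B, with 0 called. The luminal markers summed to 4389 and 4388 CPM in control against 3541.5 and 3437 CPM with MYCL (2 of 8 lower), and the neuroendocrine markers to 16.0 and 16.8 CPM against 64.9 and 64.6 CPM. Of the 8 neuroendocrine markers only 2 were high enough to test, and 1 was called higher, ENO2, a neuronal enolase. The part of proliferation and of these markers in the results above was not tested.

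**Figure D3:**
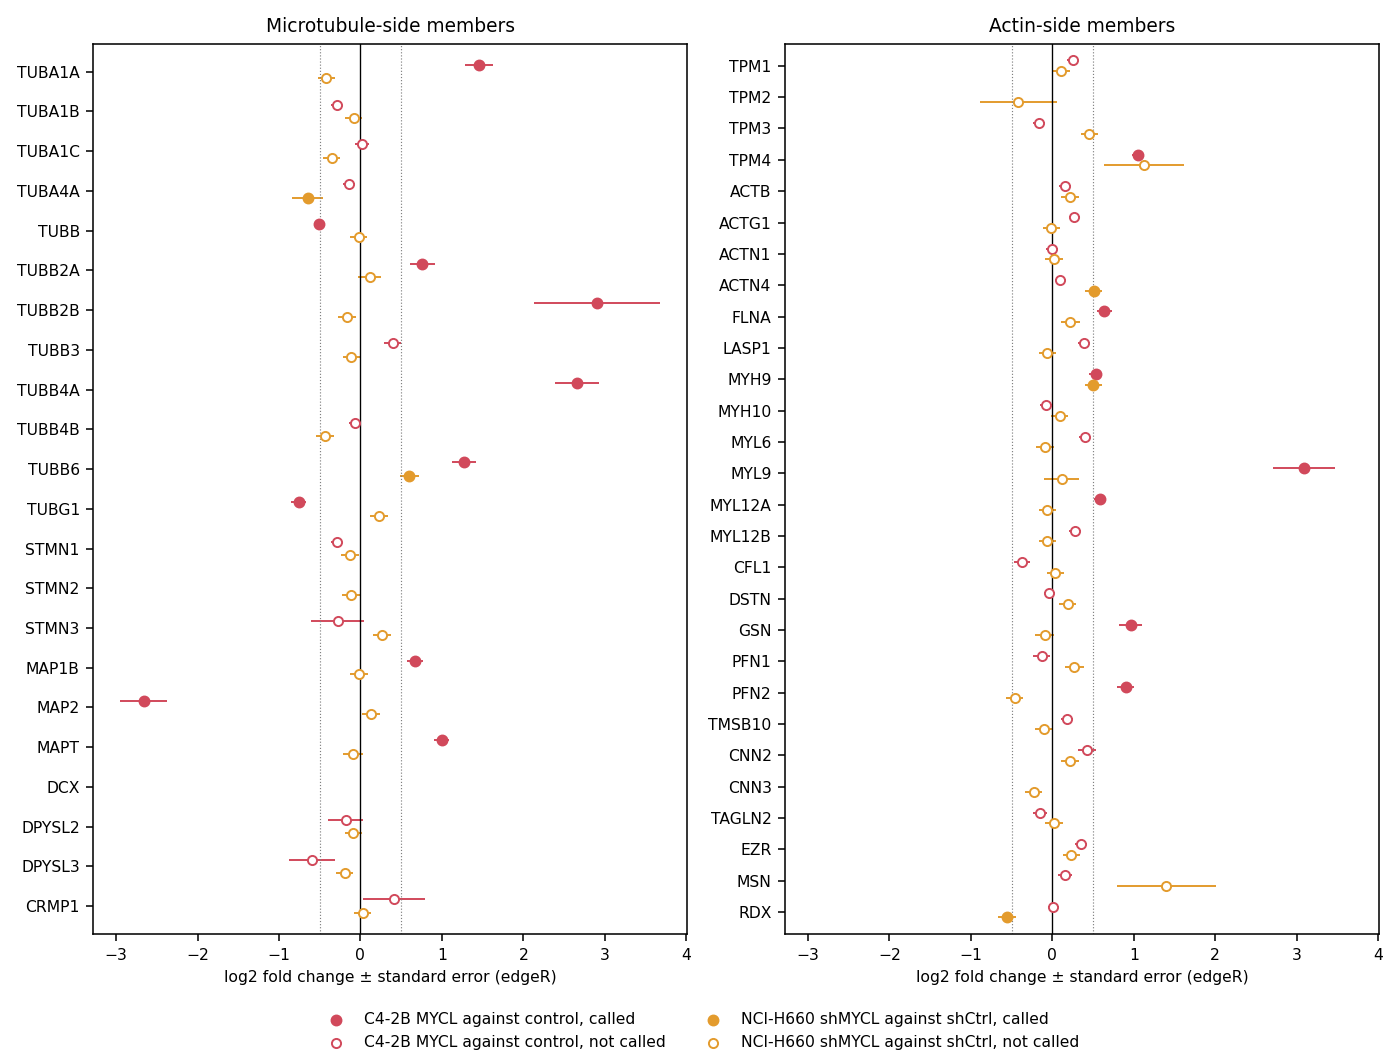
edgeR log2 fold changes with standard errors for every member tested in C4-2B MYCL against control and in NCI-H660 shMYCL against shCtrl, with filled points for calls and dotted lines at the fold minimum of 0.5. In C4-2B 17 of 46 members tested are called (37.0%, against 19.9% of all genes). In NCI-H660 5 of 48 are called (10.4%, below the 16.2% of all genes). MYH9 and TUBB6 are called higher in both.

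The wider lists of the pathway gave the following counts in C4-2B MYCL. Of 87 other actin-side genes tested, 18 were higher and 3 lower (24.1% called, against 19.9% of all genes). Among those with a mean log2 CPM of at least 3 were TMOD2 (tropomodulin 2, a filament-end cap of neurons) at 1.48 and FSCN1 (fascin, which bundles filaments in protrusions) at 1.06 on the log2 scale. Of 90 other microtubule-side genes tested, 12 were higher and 6 lower, which is the share of all genes (20% called, against 19.9%). Those with the largest changes at a mean log2 CPM of at least 3 were the kinesin motors KIF1A (1.20), KIF5C (1.13) and KIF3C (1.00). The median log2 fold changes of these lists were 0.14 and 0.028.

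The second comparison asked what lowering MYCL does in the neuroendocrine line. In NCI-H660 shMYCL cells few members changed: MYH9, ACTN4 and TUBB6 were higher and RDX and TUBA4A lower. Of 48 members tested, 3 were higher and 2 lower, 10.4% in all, against 16.2% of the 16980 genes tested, of which 7.18% were higher and 8.99% lower. The actin side had 2 higher and 1 lower of 28 with a median log2 fold change of 0.064 (0.0092 without shCtrl replicate 1 and 0.023 without shMYCL replicate 1), and the microtubule side 1 and 1 of 20 with a median of -0.089, against -0.0029 over all genes. TUBB4A and DCX were too low to test.

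MYH9 had 6275 and 6565 counts (351 and 335 CPM) in the shCtrl libraries and 8289 and 7580 counts (517 and 459 CPM) in the shMYCL libraries (log2 fold change 0.51, SE 0.11, adjusted p = 0.00273). ACTN4, an alpha-actinin that crosslinks filaments, had 7073 and 8645 counts (396 and 441 CPM) in the shCtrl libraries and 9438 and 9977 counts (589 and 604 CPM) in the shMYCL libraries (log2 fold change 0.51, SE 0.10, adjusted p = 0.00254). RDX, radixin, an ERM linker, had 8925 and 8443 counts (499 and 431 CPM) in the shCtrl libraries and 4875 and 5469 counts (304 and 331 CPM) in the shMYCL libraries (log2 fold change -0.55, SE 0.11, adjusted p = 0.00182). The groups did not overlap in any of these, but all lay near the fold minimum. MYH9 was at 0.48 without shCtrl replicate 2 and 0.43 without shMYCL replicate 1. ACTN4 was at 0.43 without shCtrl replicate 1 and 0.49 without shMYCL replicate 2, and RDX at -0.44 without shCtrl replicate 1 and -0.48 without shMYCL replicate 1. MYH9's share of the heavy chains was 82.2% and 82.3% in shCtrl and 86.1% and 86.0% in shMYCL libraries, and RDX's share of ERM message was 44.5% and 39.7% and 30.1% and 29.0%, beside 55.5% and 60.3% and 69.8% and 71.0% for EZR.

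TUBB6 had 623 and 785 counts (34.9 and 40.1 CPM) in the shCtrl libraries and 944 and 909 counts (58.9 and 55.1 CPM) in the shMYCL libraries (log2 fold change 0.60, SE 0.12, adjusted p = 0.00174), with both knockdown libraries above both controls. TUBA4A, an alpha-tubulin that lacks the usual terminal tyrosine in its gene, had 196 and 315 counts (11.0 and 16.1 CPM) in the shCtrl libraries and 134 and 148 counts (8.38 and 8.98 CPM) in the shMYCL libraries (log2 fold change -0.65, SE 0.19, adjusted p = 0.0214). The call was lost without shCtrl replicate 2, the higher of its group (log2 fold change -0.34, adjusted p = 0.198), and without shMYCL replicate 1 (-0.59, adjusted p = 0.0753). Below the fold minimum, TUBA1A (-0.42), TUBA1C (-0.35) and TUBB4B (-0.44) had an adjusted p under 0.05 on the microtubule side, and TPM3 (0.45) and PFN2 (-0.46) on the actin side, where 24.8% of all genes passed at any fold.

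MSN and TPM4 had larger values that did not pass, at low counts. MSN, moesin, had 6 and 6 counts (0.336 and 0.306 CPM) in the shCtrl libraries and 14 and 14 counts (0.873 and 0.848 CPM) in the shMYCL libraries (log2 fold change 1.40, SE 0.60, adjusted p = 0.102). TPM4 had 19 and 10 counts (1.06 and 0.511 CPM) in the shCtrl libraries and 27 and 29 counts (1.68 and 1.76 CPM) in the shMYCL libraries (log2 fold change 1.13, SE 0.49, adjusted p = 0.104). Other microtubule-side members, none of them called, had log2 fold changes of -0.11 for STMN2, 0.26 for STMN3, -0.11 for TUBB3, -0.16 for TUBB2B, 0.13 for MAP2, -0.090 for MAPT, 0.029 for CRMP1, -0.19 for DPYSL3 and -0.088 for DPYSL2. The other members not called lay between -0.42 (TPM2, at 12 to 31 counts) and 0.27 (PFN1).

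In the wider lists, 4 of 85 other actin-side genes tested were higher and 6 lower in NCI-H660 shMYCL (11.8% called), and 4 of 91 other microtubule-side genes were higher and 3 lower (7.69%), both below the 16.2% of all genes. At a mean log2 CPM of at least 3, the largest changes were in TAGLN3 (-1.14), MYO1D (0.92) and TMOD2 (-0.84) on the actin side, and in TTLL3 (0.91), which adds glycine to tubulin, DCTN3 (-0.83), a dynactin subunit, and MAP1S (0.66) on the microtubule side. TAGLN (1.22) and MAP7D2 (-1.49) had larger changes at lower levels. Of 24 proliferation genes, 6 were lower and 1 higher (29.2% called, against 16.2% of all genes). Their summed levels were 8405 and 8192 CPM in shCtrl and 7994 and 8046 CPM in shMYCL libraries. The fibroblast and smooth muscle markers, mostly COL1A2, summed to 112 and 109 CPM in shCtrl and 75.1 and 69.6 CPM in shMYCL libraries. The neuroendocrine markers summed to 2034 and 1981 CPM in shCtrl and 1588 and 1738 CPM in shMYCL libraries. The part of these markers in the results was not tested.

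The effects in both lines were then compared directly, as the change from low to high MYCL in C4-2B minus the change from low to high MYCL in NCI-H660, in 1 fit of all 8 libraries. MYCL was at 12.1 and 14.2 CPM in C4-2B control and 3732.5 and 4241.8 CPM in C4-2B MYCL. It was at 10.3 and 12.0 CPM in NCI-H660 shMYCL and 104 and 81.8 CPM in shCtrl. Line, vector, type of perturbation and size of the MYCL change thus differ together here and cannot be told apart. Of 49 members tested, 23 differed between the lines (46.9%, against 17.9% of 19605 genes, 9.59% upward and 8.33% downward, and 20.2% at any size), 10 upward and 1 downward on the actin side and 6 upward and 6 downward on the microtubule side. For MYH9 the difference was 1.03 (SE 0.13, adjusted p = 0.000227), with a higher level under more MYCL in C4-2B and under less MYCL in NCI-H660. TUBB6 gave 1.87 (SE 0.20, adjusted p = 7.01e-05), in the same way. MAP2 gave -2.54 (SE 0.26, adjusted p = 5.04e-05) and MYL9 3.21 (SE 0.47, adjusted p = 0.000516), with values in shMYCL against shCtrl of 0.13 and 0.12 that were not called. STMN2, at 0 in C4-2B, is counted among the 49 but has no usable estimate there.

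**Figure D4:**
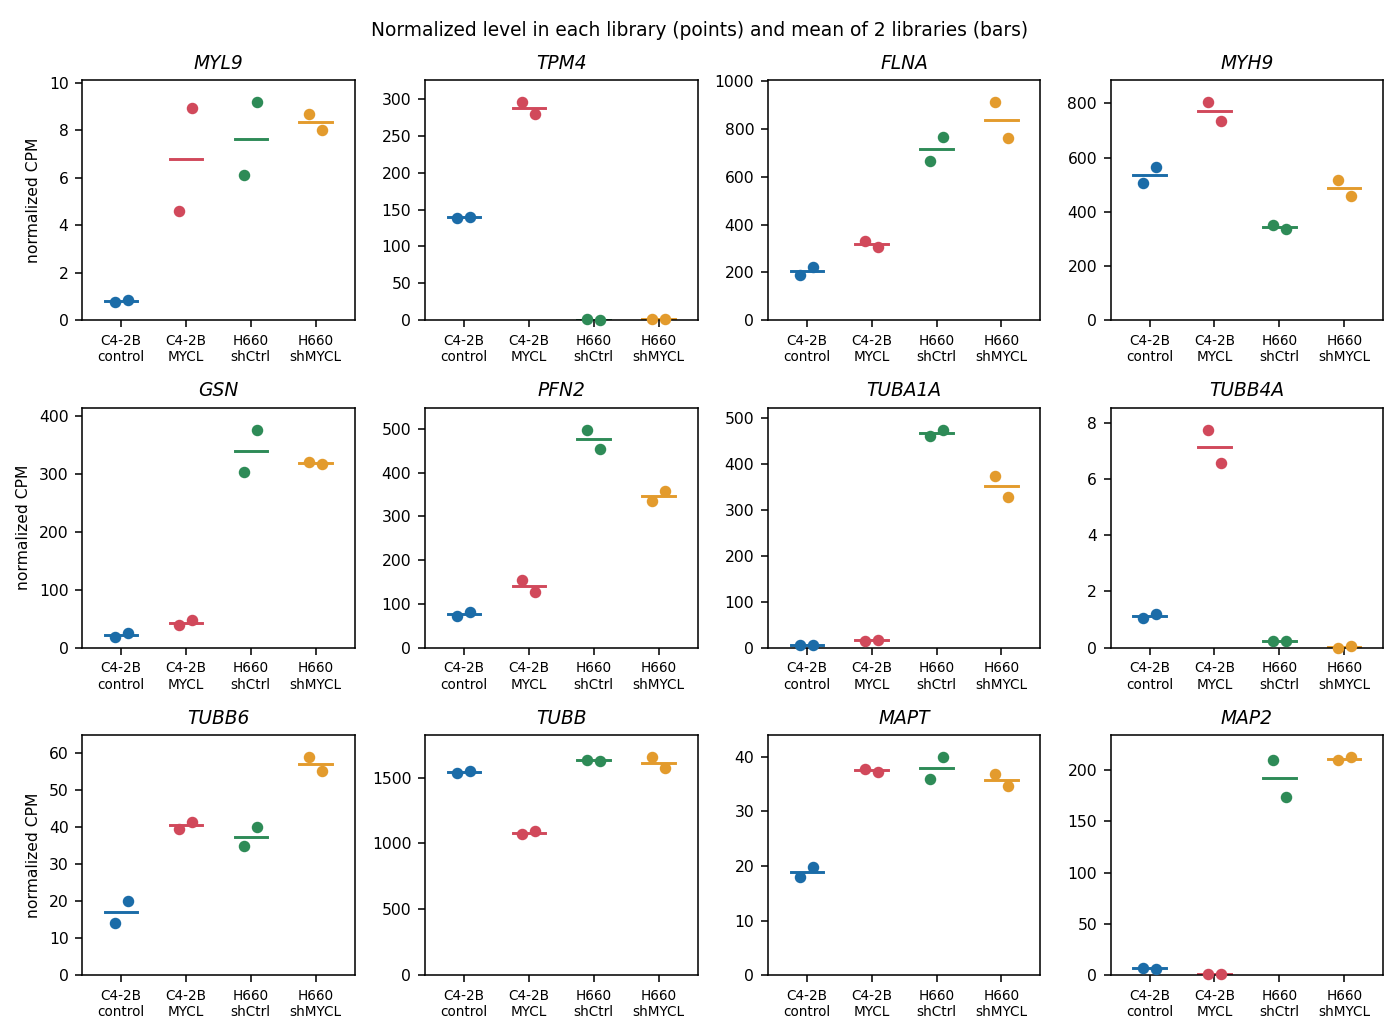
Normalized CPM of 12 members in each library (points) with the mean of 2 libraries (bars), on linear axes that start at 0. MYH9 and TUBB6 are higher in C4-2B MYCL than in control and also higher in NCI-H660 shMYCL than in shCtrl, and MAP2 and TUBA1A reach the level of NCI-H660 in no C4-2B library.

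The third comparison set the lines side by side, NCI-H660 shCtrl against C4-2B control. Line, vector and virus differ together here and cannot be told apart. The members most unlike between the lines were STMN2, TUBB2B and CNN3, which had between 0 and 6 counts in each C4-2B control library and were high in NCI-H660, and MSN and TPM4, with the reverse pattern. With a fold minimum of 1 on the log2 scale and the same limit on the adjusted p, 23 of 49 members tested were higher in NCI-H660 and 4 lower, 55.1% in all, which is the share of all genes too (55.7% of 18748, 29.8% higher and 25.9% lower). The microtubule side had 13 higher and 2 lower of 21, with a median log2 fold change of 1.75, and the actin side 10 and 2 of 28, with a median of 0.59, against 0.040 over all genes.

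**Figure D5:**
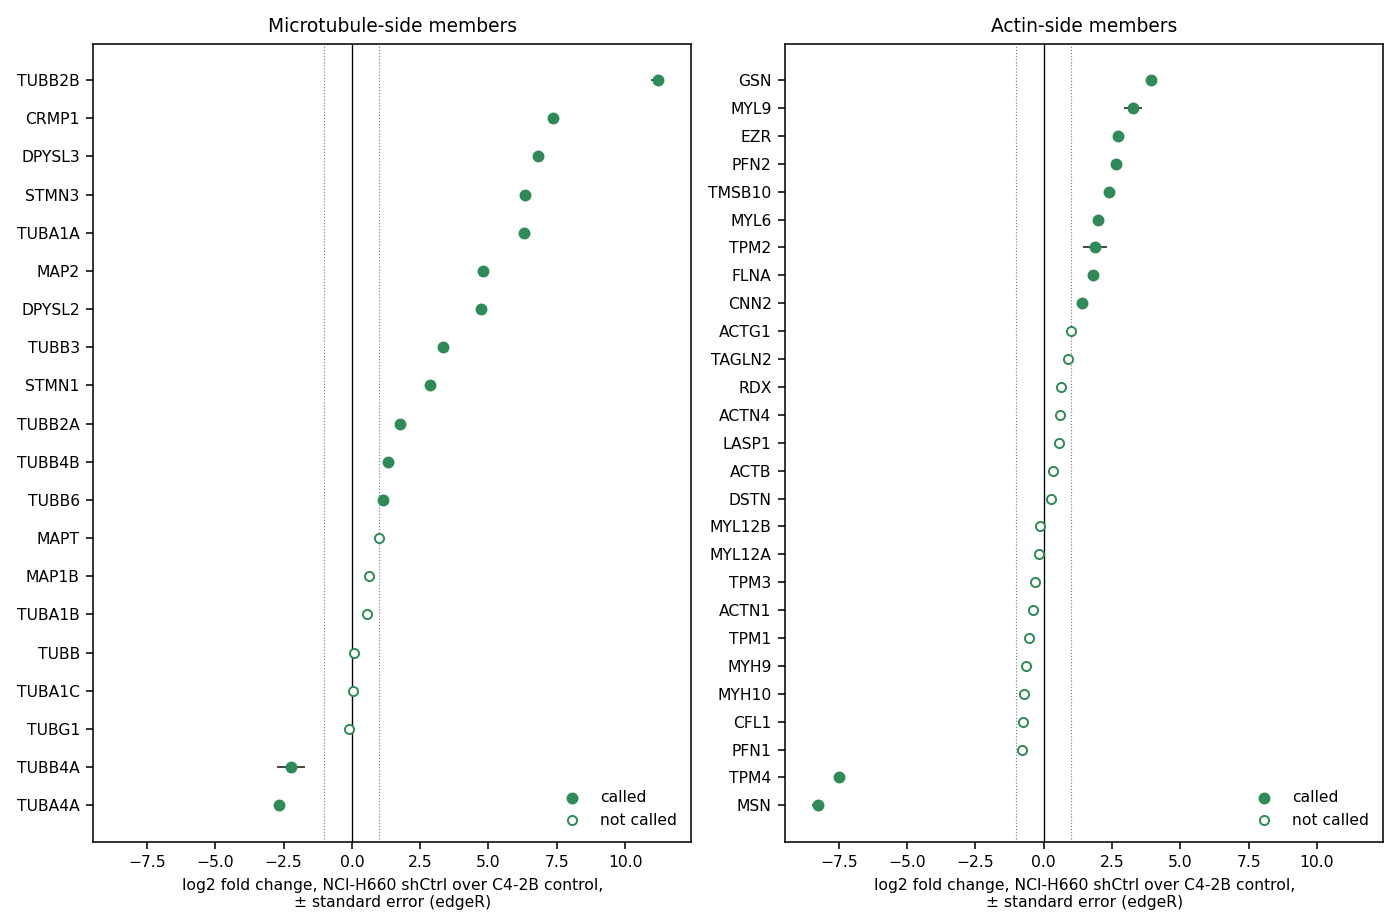
edgeR log2 fold changes with standard errors of NCI-H660 shCtrl over C4-2B control for the tested members, without STMN2 and CNN3, whose C4-2B counts are too few for a stable value, and with dotted lines at the fold minimum of 1. On the microtubule side values reach 11.2 for TUBB2B and -2.68 for TUBA4A, and on the actin side TPM4 and MSN lie at -7.49 and -8.27.

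STMN2, a stathmin of growing neurites, had 2192 and 1913 counts (123 and 97.7 CPM) in NCI-H660 shCtrl and 0 in both C4-2B control libraries. Against the 3 counts that a count of 0 allows in the C4-2B library where they weigh most, it was at least 827-fold higher in NCI-H660. STMN3 had 60 and 48 counts (1.95 and 2.13 CPM) in C4-2B control and 2803 and 3380 counts (157 and 173 CPM) in NCI-H660 shCtrl (log2 fold change 6.33, SE 0.13, adjusted p = 6.43e-12). STMN1, which is also known from cycling cells, had 6076 and 4482 counts (198 and 199 CPM) in C4-2B control and 27291 and 26483 counts (1527 and 1352 CPM) in NCI-H660 shCtrl (log2 fold change 2.85, SE 0.092, adjusted p = 1.11e-10). All 3 stathmins were thus called higher, but STMN1 remained over 90% of the family's TPM in every library.

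The collapsin response mediators, which link guidance cues to microtubules in axons, were called higher together. CRMP1 had 39 and 30 counts (1.27 and 1.33 CPM) in C4-2B control and 3729 and 4325 counts (209 and 221 CPM) in NCI-H660 shCtrl (log2 fold change 7.36, SE 0.13, adjusted p = 3.74e-12). DPYSL3 had 95 and 73 counts (3.09 and 3.24 CPM) in C4-2B control and 6682 and 6743 counts (374 and 344 CPM) in NCI-H660 shCtrl (log2 fold change 6.82, SE 0.12, adjusted p = 3.74e-12). DPYSL2 had 157 and 112 counts (5.10 and 4.97 CPM) in C4-2B control and 2483 and 2576 counts (139 and 132 CPM) in NCI-H660 shCtrl (log2 fold change 4.74, SE 0.11, adjusted p = 1.26e-11). Their summed level was 2.50 and 2.54 TPM in C4-2B control and 317 and 294 TPM in NCI-H660 shCtrl. MAP2 had 220 and 142 counts (7.15 and 6.31 CPM) in C4-2B control and 3750 and 3405 counts (209.8 and 174 CPM) in NCI-H660 shCtrl (log2 fold change 4.82, SE 0.13, adjusted p = 3.32e-11), while MAP1B (0.64) and MAPT (1.00) differed by less than the fold minimum at an adjusted p under 0.05, as 79.6% of all genes did at any fold.

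The tubulin pool had another make-up in each line. TUBB2B had 1 and 6 counts (0.0368 and 0.279 CPM) in C4-2B control and 5396 and 6711 counts (302 and 343 CPM) in NCI-H660 shCtrl (log2 fold change 11.19, SE 0.24, adjusted p = 7.28e-12). TUBA1A had 154 and 153 counts (5.00 and 6.79 CPM) in C4-2B control and 8235 and 9280 counts (461 and 474 CPM) in NCI-H660 shCtrl (log2 fold change 6.32, SE 0.14, adjusted p = 7.15e-12). TUBB3, the beta-tubulin used to mark neurons, had 437 and 326 counts (14.2 and 14.5 CPM) in C4-2B control and 2441 and 3033 counts (137 and 155 CPM) in NCI-H660 shCtrl (log2 fold change 3.34, SE 0.11, adjusted p = 1.09e-10). No library of either line overlapped the other line in these. Of stretches of 100 bases in the canonical TUBB3 transcript, 92.5% also occur in a readthrough gene annotated over it, so its level depends on how the authors divided those reads.

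TUBB2A had 285 and 178 counts (9.26 and 7.91 CPM) in C4-2B control and 457 and 643 counts (25.6 and 32.8 CPM) in NCI-H660 shCtrl (log2 fold change 1.75, SE 0.16, adjusted p = 1.01e-06). TUBB4B had 8920 and 6303 counts (289.98 and 279.9 CPM) in C4-2B control and 11799 and 15243 counts (660.2 and 778 CPM) in NCI-H660 shCtrl (log2 fold change 1.33, SE 0.096, adjusted p = 1.1e-07). TUBB6 had 431 and 449 counts (14.0 and 19.9 CPM) in C4-2B control and 623 and 785 counts (34.9 and 40.1 CPM) in NCI-H660 shCtrl (log2 fold change 1.15, SE 0.16, adjusted p = 3.92e-05), which was 0.90 without C4-2B control replicate 1. These 3 differed by far less than TUBB2B. TUBA4A was lower, with 2655 and 1952 counts (86.3 and 86.7 CPM) in C4-2B control and 196 and 315 counts (11.0 and 16.1 CPM) in NCI-H660 shCtrl (log2 fold change -2.68, SE 0.15, adjusted p = 1.04e-08), and TUBB4A was lower at low counts, with 33 and 27 counts (1.07 and 1.20 CPM) in C4-2B control and 4 and 5 counts (0.224 and 0.255 CPM) in NCI-H660 shCtrl (log2 fold change -2.22, SE 0.52, adjusted p = 0.00193). This TUBB4A call was lost with DESeq2 (adjusted p = 0.0572) and on log2(TPM + 1) with no filter (log2 fold change -0.42).

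TUBB itself (0.074), TUBA1C (0.061) and TUBG1 (-0.11) did not pass the fold minimum. TUBA1B, at 1040.7 and 1038.8 CPM in C4-2B control and 1494.7 and 1572 CPM in NCI-H660 shCtrl, was not called either. TUBB's share of beta-tubulin TPM was 73.2% and 73.5% in C4-2B control and 46.9% and 43.2% in NCI-H660 shCtrl, and TUBB2B's share was 0.00237% and 0.0179% and 11.6% and 12.1%. TUBA1A's share of alpha-tubulin was 0.311% and 0.435% and 18.7% and 18.3%. In C4-2B MYCL, where TUBB2B and TUBA1A were called higher than in control, their shares were 0.0889% and 0.0818% and 1.17% and 1.12%. The comparisons share the C4-2B control libraries, so the values are set side by side only.

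On the actin side TPM4 was abundant in C4-2B and nearly absent from NCI-H660, with 4274 and 3155 counts (139 and 140.1 CPM) in C4-2B control and 19 and 10 counts (1.06 and 0.511 CPM) in NCI-H660 shCtrl (log2 fold change -7.49, SE 0.18, adjusted p = 1.36e-11). MSN had 2947 and 2368 counts (95.8 and 105 CPM) in C4-2B control and 6 and 6 counts (0.336 and 0.306 CPM) in NCI-H660 shCtrl (log2 fold change -8.27, SE 0.19, adjusted p = 9.99e-12). EZR had 2057 and 1407 counts (66.9 and 62.5 CPM) in C4-2B control and 7470 and 8471 counts (418 and 432 CPM) in NCI-H660 shCtrl (log2 fold change 2.71, SE 0.089, adjusted p = 1.26e-10), and RDX differed less (0.64). ERM message was therefore divided between all 3 linkers in C4-2B control, with 20.8% and 23.3% from MSN, and between EZR and RDX in NCI-H660 shCtrl, with 0.0339% and 0.0320% from MSN.

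CNN3, a calponin, had 2 and 1 counts (0.0650 and 0.0444 CPM) in C4-2B control and 2429 and 2337 counts (136 and 119 CPM) in NCI-H660 shCtrl, a ratio of 2260 with an exact 95% interval from 773 to 11000 that covers counting error only. CNN2 had 687 and 584 counts (22.3 and 25.9 CPM) in C4-2B control and 1075 and 1323 counts (60.2 and 67.5 CPM) in NCI-H660 shCtrl (log2 fold change 1.40, SE 0.12, adjusted p = 3.7e-07). GSN had 593 and 574 counts (19.3 and 25.5 CPM) in C4-2B control and 5420 and 7377 counts (303 and 377 CPM) in NCI-H660 shCtrl (log2 fold change 3.93, SE 0.15, adjusted p = 3.82e-10). MYL9 had 23 and 19 counts (0.748 and 0.844 CPM) in C4-2B control and 109 and 180 counts (6.10 and 9.19 CPM) in NCI-H660 shCtrl (log2 fold change 3.26, SE 0.33, adjusted p = 2.19e-06). All 4 were higher in NCI-H660, with no overlap between the lines.

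PFN2 had 2216 and 1814 counts (72.0 and 80.6 CPM) in C4-2B control and 8901 and 8884 counts (498 and 454 CPM) in NCI-H660 shCtrl (log2 fold change 2.63, SE 0.097, adjusted p = 3.03e-10). TMSB10 had 4651 and 3185 counts (151 and 141 CPM) in C4-2B control and 13054 and 16224 counts (730.5 and 828 CPM) in NCI-H660 shCtrl (log2 fold change 2.41, SE 0.095, adjusted p = 5.66e-10). MYL6 had 7879 and 5793 counts (256 and 257 CPM) in C4-2B control and 18215 and 20583 counts (1019 and 1051 CPM) in NCI-H660 shCtrl (log2 fold change 2.00, SE 0.082, adjusted p = 7.44e-10). TMSB10 and MYL6 are abundant messages in both lines. FLNA had 5769 and 4991 counts (188 and 222 CPM) in C4-2B control and 11926 and 15055 counts (667 and 769 CPM) in NCI-H660 shCtrl (log2 fold change 1.80, SE 0.11, adjusted p = 1.8e-08), and TPM2 had 14 and 9 counts (0.455 and 0.400 CPM) in C4-2B control and 29 and 31 counts (1.62 and 1.58 CPM) in NCI-H660 shCtrl (log2 fold change 1.88, SE 0.45, adjusted p = 0.00211). The 16 actin-side members not called, among them both actins, both myosin II heavy chains, CFL1 and PFN1, lay between -0.80 (PFN1) and 0.99 (ACTG1). With no fold minimum the actin side had 17 higher and 9 lower, where 79.6% of all genes passed. The 9 were TPM1, TPM3, TPM4, ACTN1, MYH9, MYH10, CFL1, PFN1 and MSN. On log2(TPM + 1) the median of all genes was 0.568 in this comparison, and the split of called genes went from 53.4% to 74.5% higher. Relative to that shift the medians were 0.63 on the actin side and 2.30 on the microtubule side.

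Of 88 genes of the wider actin-side list tested, 29 were higher and 18 lower in NCI-H660 (53.4% called, against 55.7% of all genes), and the largest changes had almost no counts in 1 line: TMSB4X, a thymosin, had 3 and 2 counts in C4-2B control and 10756 and 11664 in NCI-H660 shCtrl, whereas CAP2 had 1058 and 739 against 0 and 0 and DIAPH2, a formin, 791 and 541 against 0 and 0. Of 94 other microtubule-side genes, 26 were higher and 13 lower (41.5%, below the share of all genes). At a mean log2 CPM of at least 3 the largest changes were those of DCLK1 at 1 and 4 counts against 1377 and 1301, TUBA3D, an alpha-tubulin, at 729 and 480 against 1 and 1, and DPYSL5 at 44 and 29 against 1756 and 2198. Of 24 proliferation genes, 10 were higher and 0 lower in NCI-H660 (41.7% called, below the 55.7% of all genes), and their part in the line differences was not tested.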

How the data were processed

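The authors deposited a table of estimated counts per gene, not whole numbers in 22.4% of non-zero values, and a table of TPM (transcripts scaled to a fixed total) per gene, both on human build hg38 per the labels. The TPM table was shorter, with 65535 genes against 78691 in the count table, but held every member. Its libraries summed to between 997224 and 998165 TPM. The aligner and counter are not given in the sources used here, nor is whether counting used strand. Counts were rounded and tested with edgeR 4.0.16 (quasi-likelihood, TMM scaling, filterByExpr) in R 4.3.3, within each line, between the control libraries, and as a difference of effects over all 8 libraries. Standard errors are the log2 fold change divided by the square root of F. CPM used TMM factors over all 8 libraries, and levels are compared between genes only in TPM. Alternatives used DESeq2 1.42.0, limma 3.58.1 on log2(TPM + 1) or log2(TPM + 0.1), other filters, fold minimums, summed paralogs, a replicate block and leaving out each library. Replicates differed by more than counting noise, so no library repeated the counts of its partner. This does not exclude technical replicates of the same cells.

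Members called and among the 6 largest changes of their side, or with a log2 fold change of 1 or more in size, are given in full, other called members by their log2 fold change, and the rest by counts and ranges. The members and all gene lists were chosen with earlier results of these data known. Library totals, from 15177071 to 32344170, set the counting precision, and intervals and floors cover counting error only. Gene positions and shared stretches came from GENCODE 44. Promoter windows came from RefSeq. Some genes and 1 gene list are not reported here.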

Additional observations from a re-analysis of the deposited data

Results flagged for a closer look

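The effect of high against low MYCL differed between C4-2B and NCI-H660 for 23 members by a test of the difference itself (edgeR, adjusted p under 0.05 and an absolute difference of at least 0.5 on the log2 scale), 46.9% of those tested against 17.9% of all genes. The members were chosen with earlier results of these data known, so these shares describe the list and were not tested against each other. Each difference is given with the change from low to high MYCL in C4-2B and in NCI-H660 in parentheses. Line, vector, type of perturbation and size of the MYCL change differ together in it and cannot be told apart.

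On the actin side the differences were 2.19 for TPM4 (1.05 and -1.13), 0.60 for ACTN4 (0.099 and -0.51), 0.85 for FLNA (0.64 and -0.22), 1.03 for MYH9 (0.53 and -0.51) and 3.21 for MYL9 (3.09 and -0.12). They were also 0.52 for MYL12A (0.58 and 0.060), 0.87 for GSN (0.97 and 0.095), 0.64 for CNN2 (0.42 and -0.22), 0.58 for EZR (0.35 and -0.23) and 1.56 for MSN (0.16 and -1.40). The lone negative difference there was -0.54 for RDX (0.014 and 0.55).

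On the microtubule side the positive differences were 1.04 for TUBA1A (1.45 and 0.42), 0.87 for TUBB2A (0.76 and -0.11), 2.78 for TUBB2B (2.90 and 0.16), 1.87 for TUBB6 (1.27 and -0.60), 0.65 for MAP1B (0.67 and 0.021) and 0.90 for MAPT (1.00 and 0.090), and the negative ones were -0.79 for TUBA4A (-0.14 and 0.65), -0.53 for TUBB (-0.50 and 0.020), -0.50 for TUBB4B (-0.065 and 0.44), -0.53 for TUBG1 (-0.76 and -0.23), -2.54 for MAP2 (-2.66 and -0.13) and -0.79 for DPYSL3 (-0.60 and 0.19).

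MYH9 and TUBB6 were called in opposite directions in the lines with respect to MYCL, and were higher in C4-2B MYCL and in NCI-H660 shMYCL than in their controls. TPM4, MSN and TUBB2B rest on few counts in 1 line.

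The call did not hold without 1 library for 11 of these members. For TUBB4B the difference was -0.49 without C4-2B control replicate 1, -0.46 without C4-2B MYCL replicate 2, -0.39 without NCI-H660 shCtrl replicate 2 (edgeR adjusted p from 0.0342 to 0.0673). For TUBG1 the difference was -0.43 without C4-2B control replicate 1, -0.47 without C4-2B MYCL replicate 1, -0.42 without NCI-H660 shCtrl replicate 2, -0.53 without NCI-H660 shMYCL replicate 1, -0.55 without NCI-H660 shMYCL replicate 2 (edgeR adjusted p from 0.0559 to 0.11). For MAP1B the difference was 0.54 without C4-2B control replicate 1, 0.54 without NCI-H660 shMYCL replicate 1 (edgeR adjusted p from 0.0658 to 0.0725). For CNN2 the difference was 0.53 without C4-2B control replicate 1, 0.59 without NCI-H660 shMYCL replicate 2 (edgeR adjusted p from 0.0501 to 0.0706). For RDX the difference was -0.52 without C4-2B control replicate 1, -0.44 without NCI-H660 shCtrl replicate 1, -0.49 without NCI-H660 shMYCL replicate 1 (edgeR adjusted p from 0.0298 to 0.0505). For TUBB2A the difference was 0.78 without C4-2B control replicate 2, 0.73 without C4-2B MYCL replicate 1, 0.69 without NCI-H660 shCtrl replicate 1, 0.73 without NCI-H660 shMYCL replicate 2 (edgeR adjusted p from 0.0548 to 0.0781). For DPYSL3 the difference was -0.75 without C4-2B control replicate 2, -0.72 without C4-2B MYCL replicate 2 (edgeR adjusted p from 0.0553 to 0.0706). For MYL12A the difference was 0.46 without C4-2B MYCL replicate 2, 0.46 without NCI-H660 shCtrl replicate 2, 0.49 without NCI-H660 shMYCL replicate 2 (edgeR adjusted p from 0.0243 to 0.039). For MSN the difference was 1.61 without NCI-H660 shCtrl replicate 1, 1.48 without NCI-H660 shCtrl replicate 2, 1.53 without NCI-H660 shMYCL replicate 1, 1.57 without NCI-H660 shMYCL replicate 2 (edgeR adjusted p from 0.0846 to 0.103). For TUBA4A the difference was -0.49 without NCI-H660 shCtrl replicate 2, -0.75 without NCI-H660 shMYCL replicate 1 (edgeR adjusted p from 0.0525 to 0.067). For EZR the difference was 0.49 without NCI-H660 shMYCL replicate 2 (edgeR adjusted p = 0.0316).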

How the results depend on the processing

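Of results for single members, 1013 alternatives kept direction and call, 118 lost the call and 8 reversed, and for counts and medians 194 alternatives stayed close and 50 moved. In C4-2B the actin-side median was 0.12 on log2(TPM + 1), with 0.1 as pseudocount and with no filter, 0.23 with paralogs summed and between 0.21 and 0.28 leaving out 1 library, and the microtubule-side median was -0.17, -0.21, -0.16 and -0.24 under the first 4 and between -0.070 and 0.013 leaving out 1 library. Genes called were 1940 (TPM, no filter), 5895 (no fold minimum) and 1411 (larger minimum), with 2, 15 and 2 actin-side members, and 5 microtubule-side members under TPM with no filter, the larger minimum and paralogs summed. In NCI-H660 genes called were 1737 (DESeq2), 1702 (TPM), 1600 (pseudocount 0.1), 4204 (no minimum), 1022 (larger minimum) and 1 (TPM, no filter, limma, where 5469 had an unadjusted p under 0.05). The actin-side median was 0.028 with at least 10 counts in every library and between 0.0092 and 0.087 leaving out 1 library. Actin-side members called were 5 (4-group fit), 5 (no minimum), 0 (larger minimum) and 0 (TPM, no filter), and 1 to 3 leaving out 1 library. Microtubule-side members called were 1 (DESeq2), 5 (no minimum), 0 (larger minimum) and 0 (TPM, no filter), and 1 to 3 leaving out 1 library, with medians of -0.065 (TPM, no filter), -0.13 (paralogs summed) and -0.090 to -0.048 leaving out 1 library. At an unadjusted p under 0.05 there were 6 actin-side and 7 microtubule-side members in the limma fit with no filter and 10 and 6 in the edgeR fit. Between lines, genes called were 5817 (at least 10 counts in every library) and 6344 (larger minimum), the actin-side median 1.20, 1.21 and 1.20 and the microtubule-side median 2.86, 2.93 and 2.22 in the 3 TPM fits and 0.77 with paralogs summed, and 26 actin-side members were called with no minimum. For the difference between lines 8 members were called at the larger minimum. The cause was not tested, beyond the fewer or more genes that each minimum or filter admits by construction.

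With paralogs summed each gene of a summed group takes the group's value, and TUBA4A, TUBB3 and TUBB6 were in no group. TUBA1A was thus at -0.20 and TUBB2A, TUBB2B and TUBB4A at -0.41 in C4-2B, and TUBB4A at 0.55 between lines. For the difference between lines, TUBA1A was at -0.38 and TUBB2A and TUBB2B at -0.55. With the replicate block, genes called were 3536, 2949 and 10202 in C4-2B, NCI-H660 and between lines, against 3355, 2745 and 10442. Over genes, the difference between replicates 1 and 2 in 1 group correlated with that in the other group at 0.0328, 0.0457 and 0.0154 in these comparisons. Little deviation over all genes was thus shared by number, which does not exclude a pairing. Depth limits MSN and TPM4 in NCI-H660 and TUBB2B, CNN3 and TPM2 in C4-2B.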
